A study of Mus musculus with 11 samples.

Results

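The proteasome is the barrel-shaped protease that degrades ubiquitin-tagged proteins. Its core is built of stacked rings of alpha subunits, which form the gate, and beta subunits, of which Psmb5, Psmb6 and Psmb7 carry the proteolytic sites. A regulatory particle caps the core: its base holds a ring of ATPases (Psmc genes) that unfold substrates, with further subunits that bind ubiquitin, and its lid removes the ubiquitin chain. Activators of the Psme family can cap the core in place of the regulatory particle. In lymphoid cells, and in other cells exposed to interferon, the subunits Psmb8, Psmb9 and Psmb10 can replace the constitutive catalytic subunits. The result is the immunoproteasome, which favours peptides that fit class I MHC molecules.

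The genes described here are those measured by a probe set with 1 gene symbol that starts with Psma, Psmb, Psmc, Psmd or Psme and a digit, without the immunoproteasome genes Psmb8, Psmb9 and Psmb10. The rule took 40 genes (73 probe sets) of the 12393 genes named on the array, and each gene was read from its probe set with the highest mean signal over the 11 arrays. They were 15 core genes, 17 genes of the regulatory particle, 3 chaperones that assemble the regulatory particle and carry Psmd names (Psmd5, Psmd9 and Psmd10), 3 activators, and 2 genes that share the prefix without coding for a subunit. Those 2 are Psmc3ip, a factor of meiotic recombination, and Psme3ip1, a protein that binds Psme3. Of the 38 other genes 37 passed the filter on dim probe sets, and Psma8, the alpha subunit of the testis, did not, with a signal between 2.3 and 180 on the 11 arrays. Psme2, the partner of Psme1, was no member because its probe set also names Psme2b.

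RNA came from B cell lymphomas of E-mu-BRD2 mice on the FVB background, which carry BRD2, a bromodomain protein that binds acetylated histones, as a transgene under the immunoglobulin heavy chain enhancer. The 6 lymphomas classed as marginal and the 5 classed as transitional in severity were compared, 1 array per lymphoma, and all 11 had oligoclonal immunoglobulin. Spleen enlargement was graded marginal for marginal 1, mild for marginal 2, 3 and 4 and transitional 3, moderate for marginal 5 and 6, moderately severe for transitional 4 and 5 and severe for transitional 1 and 2. Failure to nest was the recorded sign of all 5 transitional animals and of marginal 2 and 3, while marginal 1, 4 and 5 had a neck, leg or haunch tumour and marginal 6 was paralysed. Animal ages and the tissue taken are not given in the sources used here, no tumour-free B cells are analysed here, and nothing says how the samples relate, so p-values measure only the spread between these samples.

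Signals are MAS5 intensities on a linear scale, and differences, given as transitional less marginal, are of log2(signal + 16), an offset that makes the change of dim probe sets look smaller. The 2% trimmed mean was 500.2 on every array with a median between 98.8 (transitional 5) and 151 (transitional 2). The ratio of the 3-prime to the 5-prime control probe sets of Gapdh, a measure of RNA integrity, lay between −0.66 and −0.25 (log2), with −0.51 on transitional 4 and −0.66 on transitional 5. The same ratio for actin lay between 0.15 on transitional 4 and 0.53 on transitional 3, with 0.18 on transitional 5.

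Transitional 4 and 5 stood apart from the other arrays in cell type markers, which touches every result below. All 9 B cell markers on the array were measured on them, but the summed signal was 9814 and 6748, against 24453 to 86619 on the marginal arrays and 43674 to 67172 on transitional 1 to 3. Cd79a, a chain of the B cell receptor, had a signal of 2005 and 910 there and at least 4149 on the other arrays. Pax5, the B lineage factor, was at 4.2 and 12.2 there and from 58.7 to 127.5 on the others, a dim probe set on every array. The erythroid markers on the array (10 of 15 listed, 9 tested, the globin Hba-a1 among the dim) summed to 87553 and 70881, against 17657 to 57989 on the marginal arrays and 1230 to 6058 on transitional 1 to 3. The 11 cell division genes on the array (of 12) summed to 59058 and 47627, against 9660 to 33095 and 8973 to 16250, respectively. Granulocyte markers (9 of 9) did not split the arrays in this way: their sum was 160730 and 97846 on transitional 4 and 5 and 208573 and 152543 on marginal 1 and 3. T cell markers (6 of 9 on the array) summed to 1473 and 108 on transitional 4 and 5, below every other array, and to 10350 to 23012 on transitional 1 to 3, above the marginal arrays (2685 to 7565). Transitional 2 had the highest sums of macrophage markers (8 on the array, 7 tested), 40016 against at most 10757 elsewhere, and of stroma markers (2 of 8 tested), 13208 against at most 922. In such bulk samples fewer cells of a type and less RNA per cell cannot be told apart. The part these markers played in the results below was not tested beyond the fits without the 2 arrays and with the erythroid score, both given beside the results.

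Promoters were read from RefSeq (GRCm38.p6, 250 bases before to 50 after each start) for 33 of the 40 genes (36 promoters, since a gene can have several starts), because NFE2L1, a transcription factor known to raise proteasome genes when the protease is blocked, reads an antioxidant response element. The core of that element, TGACNNNGC on either strand, was in 2 of 12 core promoters (11 genes) and 2 of 15 regulatory particle promoters (14 genes), against 12.4% of all 32851 promoters; Psmd9 and Psme4 held it too. The matches of core and regulatory particle genes are shown with the match in capitals, 5′ to 3′ on the strand of the gene and upstream of the start only.

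Psmb5: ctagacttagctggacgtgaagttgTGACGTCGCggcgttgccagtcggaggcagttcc
Psmb6: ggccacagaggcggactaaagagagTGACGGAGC
Psmc6: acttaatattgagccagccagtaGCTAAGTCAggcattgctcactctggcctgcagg
Psmd12: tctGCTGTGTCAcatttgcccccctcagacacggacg

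They lie at chr14:54618009-54618067 (Psmb5, minus strand), chr11:70525323-70525356 (Psmb6, plus strand), chr14:45329574-45329630 (Psmc6, plus strand) and chr11:107479278-107479314 (Psmd12, plus strand), and the matches begin 47, 9, 227 and 247 bases before the start. The CCAAT box, read by NF-Y, was in 6 of 12 core and 4 of 15 regulatory particle promoters, against 37.4% of all. The core of the interferon-stimulated response element was in 1 of 12 core promoters (Psmb3) and 1 of 15 of the regulatory particle (Psmd4). It was also in 1 of 3 chaperone (Psmd9) and 1 of 3 activator promoters (Psme1, 9 bases after the start). None of the 3 immunoproteasome promoters held it, and 3.44% of all did. The E-box, CACGTG, was in 1 of 12 core and 0 of 15 regulatory particle promoters, against 7.15% of all. Chaperones, activators and immunoproteasome genes each had it in 1 of 3 promoters. A match describes the letters only, and the motifs were chosen after the values were seen.

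Most constitutive proteasome genes had a somewhat higher mean in transitional than in marginal lymphomas, but none passed the test. Of the 37 tested genes 32 were higher and 5 lower, with a median log2 difference of 0.20, while 42.4% of the 13576 tested probe sets were higher and their median was −0.06. After median scaling, which moved the median of all probe sets to 0.05 and the share higher to 56.8%, 35 of the 37 were higher, and after quantile normalization 30 were, with 49.9% of all. No probe set in the whole table passed limma at an adjusted p of 0.05 (0 of 13576, background 0%), and every member had adjusted p = 0.999. At an unadjusted p of 0.05 the count was 1 of 37 members (Psma3), against 3.34% of all probe sets.

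**Figure D1:**
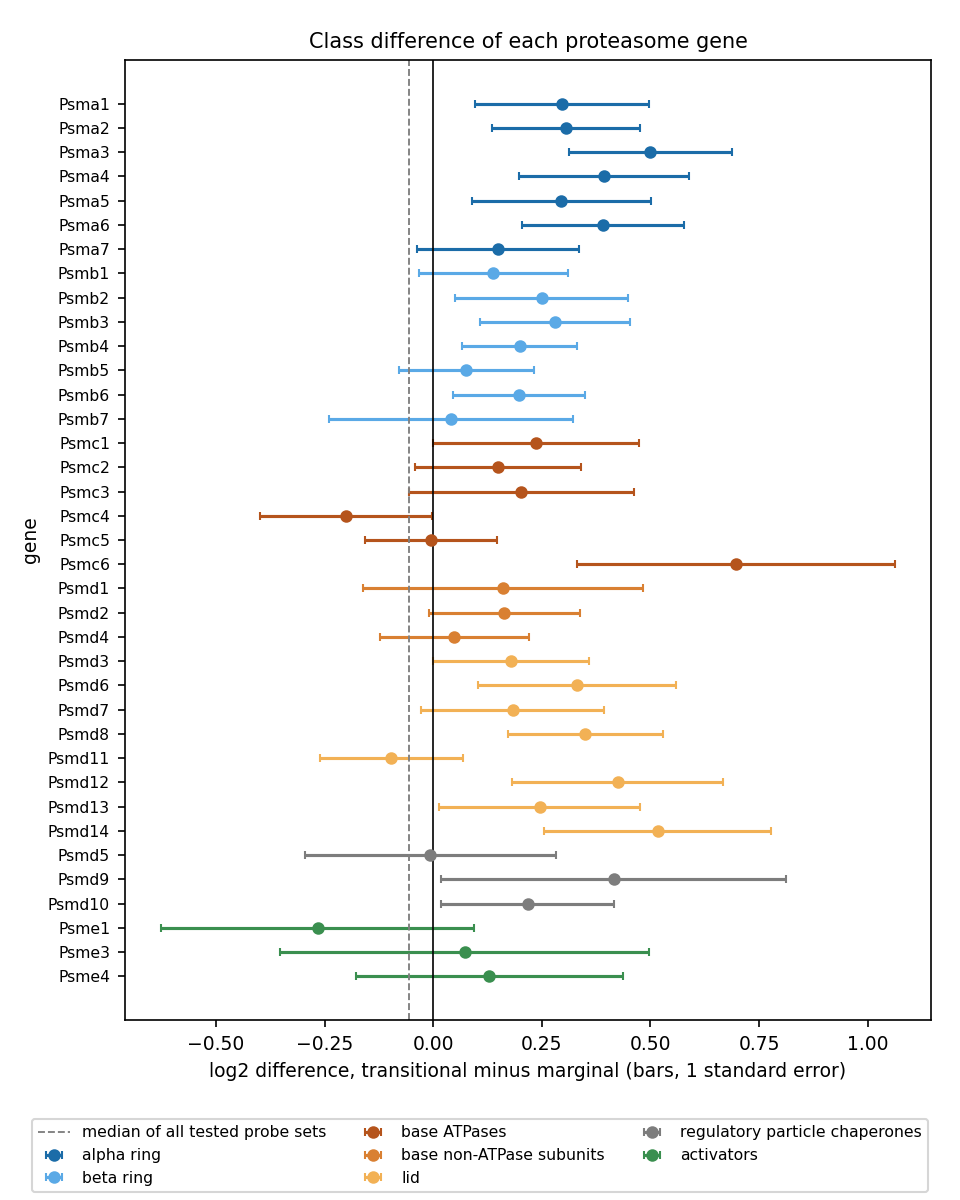
Log2 difference of each of the 37 tested genes between 5 transitional and 6 marginal lymphomas (points), with 1 standard error (bars), coloured by role in the proteasome; the dashed line is the median of all tested probe sets, −0.06. All 14 core genes lie above 0, Psmc6 has the largest difference (0.70) and Psme1 the lowest (−0.27).

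The core was higher on average in all 14 tested genes, with a median difference of 0.26 and a range from 0.04 (Psmb7) to 0.50 (Psma3). The alpha ring held the larger values, with a median of 0.31 over 7 genes, against 0.20 over the 7 genes of the beta ring. Psma3, an alpha subunit, had a signal of 3643 to 6526 (median 4614) in the 6 marginal lymphomas. In transitional 1 to 5 it was 5744, 6400, 7698, 5457 and 8464. The classes overlapped only through marginal 6, the highest marginal array, which lay above transitional 1, 2 and 4. Its log2 difference was 0.50 (SE 0.19), with an unadjusted limma p of 0.0207 and an adjusted p of 0.999.

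Psma4, also of the alpha ring, ran from 2563 to 4120 (median 3271) in marginal lymphomas and was 3812, 5525, 5366, 3277 and 4030 in transitional 1 to 5. Its highest values were thus on transitional 2 and 3, while transitional 4 was close to the marginal median, and the difference was 0.39 (SE 0.20). Psma6 ran from 3732 to 6371 (median 4868) against 5502, 5056, 7253, 6704 and 7651, a difference of 0.39 (SE 0.19). Psma2 ran from 4896 to 9201 (median 6131) against 7861, 6712, 7571, 8410 and 8563, a difference of 0.31 (SE 0.17), with the highest signal of all on marginal 3. Psma5, at 0.29 (SE 0.21), Psma1, at 0.30 (SE 0.20), and Psma7, at 0.15 (SE 0.19), completed the ring. All 7 alpha genes had their lowest signal on marginal 1, and so did 3 of the 7 beta genes, while 9.47% of all tested probe sets had theirs there. This pattern was looked for after the values were seen.

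In the beta ring Psmb3 and Psmb4, which hold no proteolytic site, had the smallest p. Psmb3 ran from 2354 to 3589 (median 2928) in marginal lymphomas and was 3055, 3372, 3251, 3434 and 4899 in transitional 1 to 5, a difference of 0.28 (SE 0.17) in which transitional 5 alone lay above every marginal array. Psmb4 had the narrowest range of the core, from 6165 on marginal 1 to 9315 on transitional 5, and a difference of 0.20 (SE 0.13). Psmb2 and Psmb1 differed by 0.25 (SE 0.20) and 0.14 (SE 0.17).

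Of the catalytic subunits, Psmb7 varied most between arrays. Psmb5, the chymotrypsin-like subunit, averaged 2270 ± 294 over the marginal arrays (SD, n = 6) and 2388 ± 275 over the transitional ones (SD, n = 5), a difference of 0.08 (SE 0.16) with a 95% confidence interval from −0.26 to 0.41. Psmb6, the caspase-like subunit, had 2363 ± 278 (SD, n = 6) and 2717 ± 378 (SD, n = 5), a difference of 0.20 (SE 0.15). Psmb7, the trypsin-like subunit, was 3745, 5243, 6027, 9260 and 9972 in transitional 1 to 5, against 4476 to 8671 (median 6153) in marginal lymphomas. The transitional arrays thus held both the lowest and the highest Psmb7 signals, and the difference was 0.04 (SE 0.28).

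The regulatory particle was higher on average in 14 of 17 genes, with a median difference of 0.18 and a range from −0.20 (Psmc4) to 0.70 (Psmc6). Its pattern rested on transitional 4 and 5: for 14 of the 17 genes the highest array was 1 of these, against 8 of 14 core genes and 22.2% of all tested probe sets. For 11 of 17 they were the highest 2 arrays, against 5 of 14 core genes and 12.6% of all. The same held for 10 of 11 cell division genes and 7 of 9 tested erythroid markers, so it is not particular to the regulatory particle. These counts were chosen after the values were seen, and the difference between core and regulatory particle was not tested.

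Among the ATPases, Psmc6 had the widest range of the 17 genes, 5.61-fold. It ran from 1018 to 3003 (median 1935) in marginal lymphomas and was 2156, 1744, 2407, 3865 and 5784 in transitional 1 to 5, so that transitional 4 and 5 lay above all marginal arrays and the other 3 among them. The difference was 0.70 (SE 0.37). Psmc4 was the lowest of the ring on average, at −0.20 (SE 0.20), with 1705 and 2007 on transitional 1 and 2, below all 6 marginal arrays (2603 to 3273), but 3741 on transitional 5, above them. The other Psmc4 probe set did not show this: it had 1379 and 1369 on transitional 1 and 2, within its marginal range of 1019 to 1590. Psmc5 had the narrowest range of any member, from 1697 to 2353, and a difference of −0.0046 (SE 0.15). Psmc1, Psmc2 and Psmc3 differed by 0.24 (SE 0.24), 0.15 (SE 0.19) and 0.20 (SE 0.26).

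Of the other base subunits Psmd1, the large scaffold, split the transitional class. It was 1436, 1611 and 1619 on transitional 1 to 3, each below all marginal arrays (1760 to 2728, median 2060), and 4380 and 4435 on transitional 4 and 5, above them all. The mean difference was 0.16 (SE 0.32). Psmd2, a scaffold that receives ubiquitin shuttles, was 3724 and 3506 on transitional 4 and 5 and between 2277 and 3102 elsewhere (difference 0.16, SE 0.17). Psmd4, a ubiquitin receptor, differed by 0.05 (SE 0.17).

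In the lid 7 of 8 genes had a higher mean. Psmd14, the deubiquitinase of the lid, was 4738, 4222, 10272, 4684 and 4512 in transitional 1 to 5 against 2752 to 5158 (median 3554) in marginal lymphomas. Transitional 3 thus lay far above every other array, and the difference over all 11 was 0.52 (SE 0.26). Psmd8 was 2455, 4380, 3153, 3375 and 3105 against 1930 to 2959 (median 2580), a difference of 0.35 (SE 0.18), with all transitional arrays but the first above every marginal array. Psmd12 was 1599, 1379, 1655, 2337 and 2814 against 1064 to 1904 (median 1357), a difference of 0.43 (SE 0.24), with only transitional 4 and 5 above the marginal range. Psmd6, Psmd13, Psmd7 and Psmd3 differed by 0.33 (SE 0.23), 0.24 (SE 0.23), 0.18 (SE 0.21) and 0.18 (SE 0.18), and Psmd11 by −0.10 (SE 0.16). No member of any group had all 5 transitional arrays above all 6 marginal arrays or all below, a separation that 0.103% and 0.125% of all tested probe sets showed.

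The chaperones of the regulatory particle base did not share 1 pattern. Psmd9 was 460, 339, 373, 1417 and 1196 in transitional 1 to 5 against 312 to 764 (median 461) in marginal lymphomas, so that transitional 4 and 5 stood above all others (difference 0.42, SE 0.40). Psmd5 also had its highest 2 signals there, 1783 and 2340, but was lowest on transitional 1 and 2, at 845 and 819 (difference −0.0064, SE 0.29). Psmd10, also called gankyrin, was highest on transitional 3, at 1142, and differed by 0.22 (SE 0.20).

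**Figure D2:**
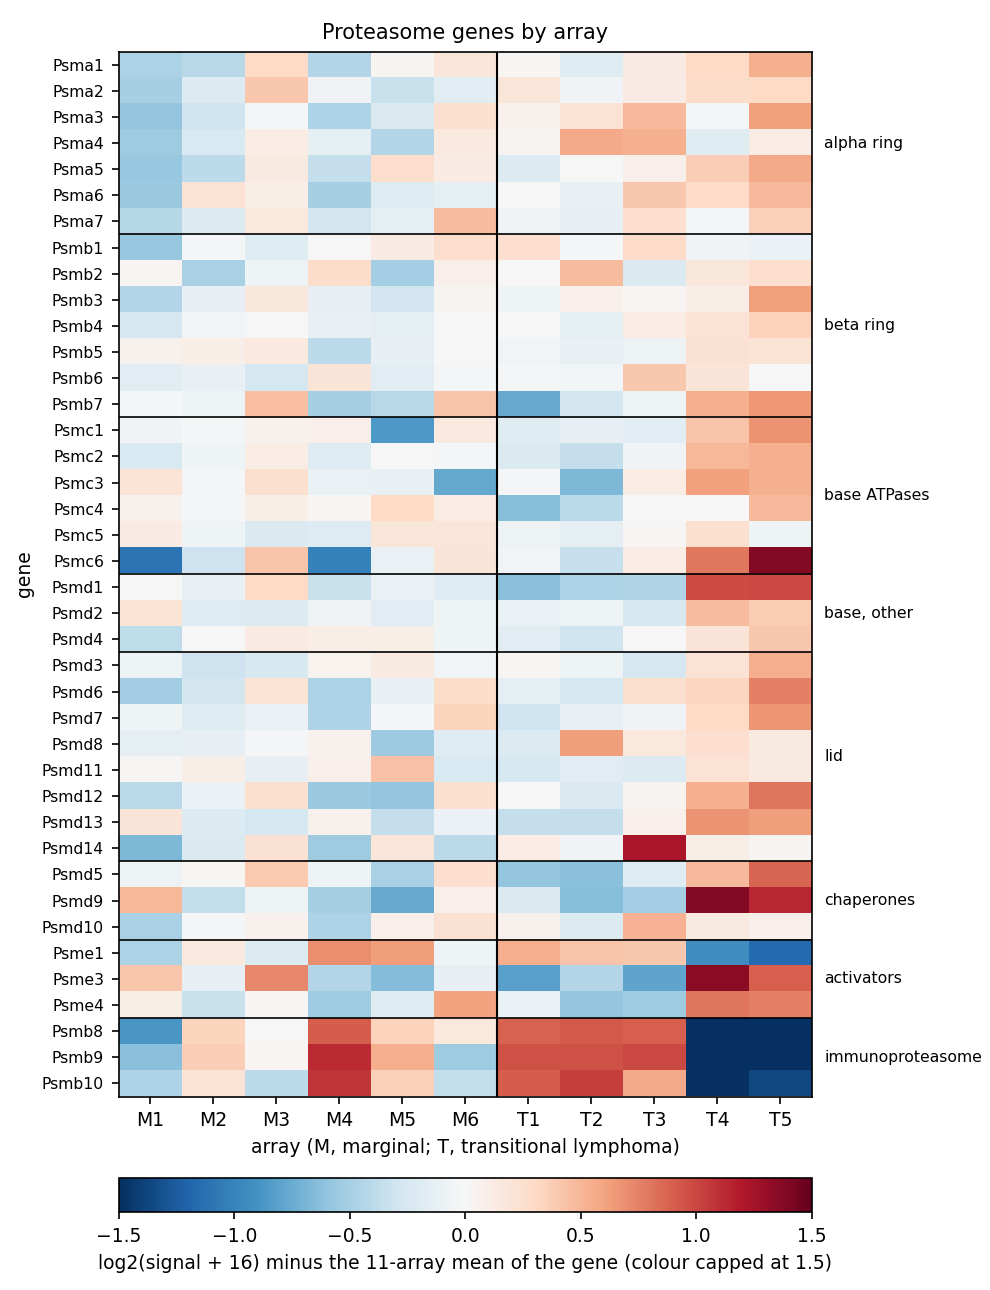
Log2(signal + 16) of the 37 tested genes and of the 3 immunoproteasome genes (rows, grouped by role) on each array (columns; M1 to M6 marginal, T1 to T5 transitional), as the deviation from the 11-array mean of the gene; red is higher, blue lower. Most regulatory particle genes, Psmd9 and Psme3 are red on T4 and T5, where Psme1 and the immunoproteasome genes are blue. The alpha ring is blue on M1.

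The activators went in opposite directions on the same arrays. Psme1, a subunit of the interferon-induced cap found with the immunoproteasome, was 7669, 7051 and 6908 on transitional 1 to 3 but 2733 and 2313 on transitional 4 and 5, below all marginal arrays (3761 to 8511, median 5402). Its mean difference was −0.27 (SE 0.36). The probe set shared by Psme2 and Psme2b had the same shape, with 8202, 8872, 8716, 2649 and 2783 in transitional 1 to 5 and 3829 to 9185 in marginal lymphomas. Psme3, which forms a nuclear cap that acts without ubiquitin, was instead 844, 1091 and 853 on transitional 1 to 3 and 3840 and 2779 on transitional 4 and 5, against 941 to 2471 (median 1372) in marginal lymphomas (difference 0.07, SE 0.42). Psme4, the large nuclear activator known from spermatogenesis and DNA repair, was 1240, 884, 916, 2330 and 2245 against 909 to 2027 (median 1256), a difference of 0.13 (SE 0.31). Psme1, Psme3, Psmc6, Psmd9 and Psmd14 had the widest ranges of all tested members, between 3.66-fold for Psme1 and 5.61-fold for Psmc6.

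The immunoproteasome genes were lowest on the arrays where the regulatory particle was highest. Psmb8 was 9631, 9857, 9701, 1469 and 1497 in transitional 1 to 5, against 2835 to 9759 (median 6151) in marginal lymphomas. Psmb9 was 6399, 6410, 6601, 909 and 832, against 2142 to 7225 (median 3828). Psmb10 was 3572, 3915, 2822, 626 and 728, against 1376 to 4021 (median 1831). For all 3 the lowest 2 arrays were transitional 4 and 5, as for 20.3% of all tested probe sets and for 8 of 9 B cell markers.

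Each immunoproteasome gene was then set against the constitutive subunit it replaces, as a log2 ratio within each array whose zero point has no meaning between different probe sets. The ratio of Psmb8 to Psmb5 was 2.09, 2.19 and 2.14 on transitional 1 to 3 and −0.88 and −0.82 on transitional 4 and 5, against 0.23 to 2.46 on the marginal arrays. That of Psmb9 to Psmb6 was 1.37, 1.39, 0.99, −1.63 and −1.57 in transitional 1 to 5, against −0.10 to 1.33. That of Psmb10 to Psmb7 was −0.07, −0.42, −1.09, −3.85 and −3.75, against −2.57 to −0.15. Between classes the mean ratio differed by −0.40 for Psmb8 and Psmb5 (two-sided exact permutation p = 0.600 over 462 splits of the arrays). It differed by −0.54 for Psmb9 and Psmb6 (exact p = 0.446) and by −0.20 for Psmb10 and Psmb7 (exact p = 0.814), and each of the 3 had adjusted exact p = 0.814. Without transitional 4 and 5 all 3 signs turned, to 0.80, 0.61 and 1.11 (adjusted exact p = 0.143 for each), and leaving out transitional 4 or 5 alone turned 2 of them.

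**Figure D3:**
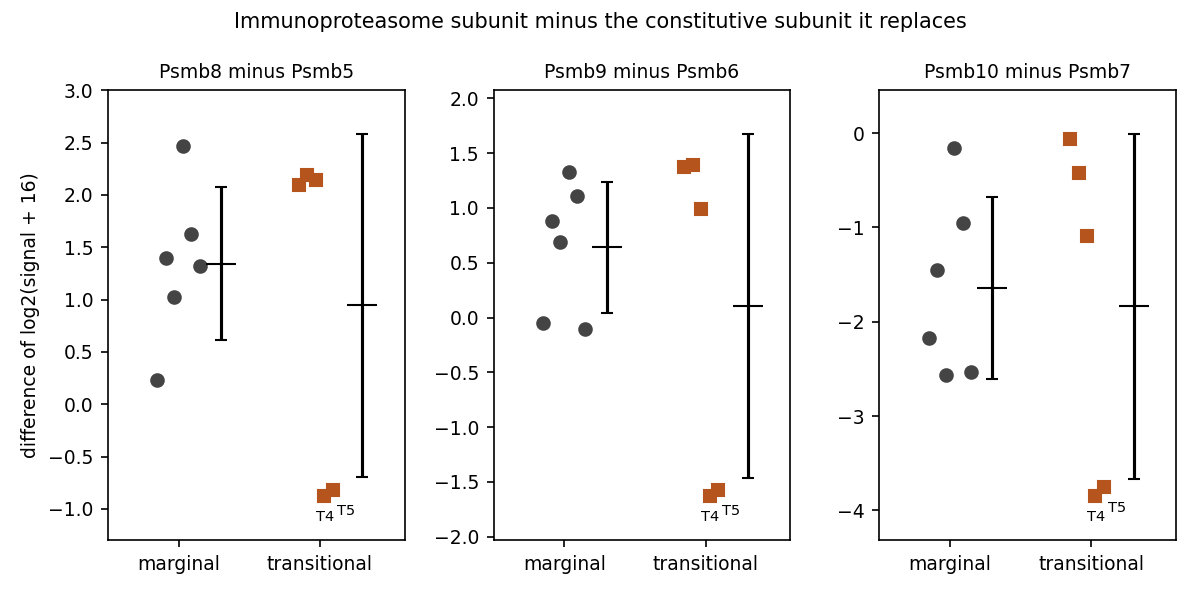
Difference of log2(signal + 16) between each immunoproteasome gene and the constitutive catalytic gene it replaces, on 6 marginal (circles) and 5 transitional arrays (squares), with the class mean ± SD beside the points. T4 and T5, at −0.88 and −0.82 in the first panel, lie below every other array in all 3 panels.

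Scores, the mean log2 deviation of a group's tested genes from their 11-array means, show the same arrays apart for the regulatory particle and the immunoproteasome. The regulatory particle score was 0.40 on transitional 4 and 0.53 on transitional 5, and from −0.20 to 0.05 on the other 9. The core score was 0.17 and 0.35 on these 2, but also 0.18 on transitional 3, 0.12 on marginal 6 and 0.10 on marginal 3, and was lowest on marginal 1 (−0.36). The activator score was 0.41 and 0.16, with 0.18 on marginal 3 and 0.14 on marginal 6, and lowest on transitional 3 (−0.31). The immunoproteasome score was −1.74 and −1.71, from 0.82 to 0.97 on transitional 1 to 3, and from −0.65 on marginal 1 to 1.04 on marginal 4.

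**Figure D4:**
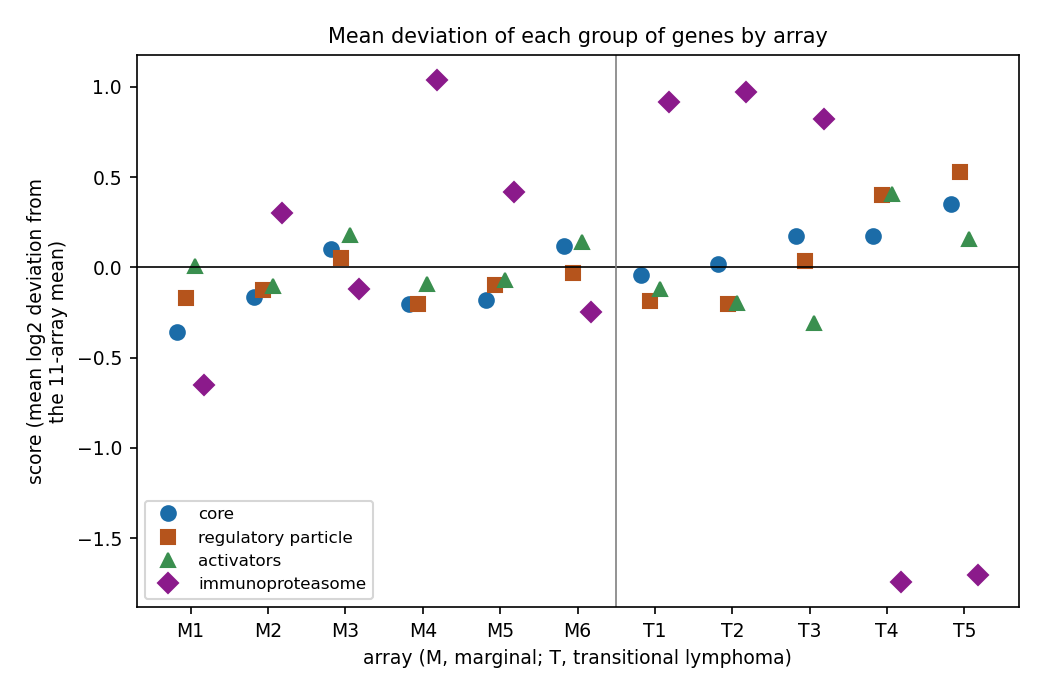
Mean log2 deviation from the 11-array mean for the core (circles), regulatory particle (squares), activators (triangles) and immunoproteasome genes (diamonds) on each array (M1 to M6 marginal, T1 to T5 transitional). The regulatory particle is highest on T4 and T5 (0.40 and 0.53), where the immunoproteasome is lowest (−1.74 and −1.71).

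The class difference was therefore computed again without transitional 4 and 5. The core kept a higher mean in 12 of 14 genes, with a median of 0.17, though Psmb7 went from 0.04 to −0.35 and Psma5 from 0.29 to 0.09, while the regulatory particle was higher in 5 of 17, with a median of −0.07, and the activators in 1 of 3, with a median of −0.34. In total 19 of the 37 genes were higher. The median of all tested probe sets was then 0.02 and 52.6% of them were higher. Psma3 and Psma4 differed by 0.48 (SE 0.21) and 0.56 (SE 0.21), and Psmd14 by 0.66 (SE 0.31). Psmd1 went to −0.44 (SE 0.18), Psmc4 to −0.44 (SE 0.18), Psme3 to −0.65 (SE 0.30), and Psme1 to 0.34 (SE 0.26). Psmb8, Psmb9 and Psmb10 went to 0.76 (SE 0.31), 0.81 (SE 0.35) and 0.77 (SE 0.33), with the sign turned. None of these passed limma over all probe sets (smallest adjusted p among members 0.508, for Psma4), and 4 of 37 members had an unadjusted p under 0.05, against 7.93% of all probe sets. With the erythroid score as a covariate over all 11 arrays the medians were 0.30 for the core, 0.38 for the regulatory particle and 0.34 for the activators, with 34 of 37 genes higher against 41.7% of all probe sets. An unadjusted p under 0.05 was reached by 9 of 37 genes, against 22.4% of all probe sets. In that fit 355 probe sets passed (2.61%), none of them a member (smallest adjusted p 0.0884, for Psme1 at −0.61). Psmb8, Psmb9 and Psmb10 were at −0.89, −0.93 and −0.66 in it, with limma adjusted p of 0.0790, 0.128 and 0.162, so these genes have opposite signs in the 2 fits.

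**Figure D5:**
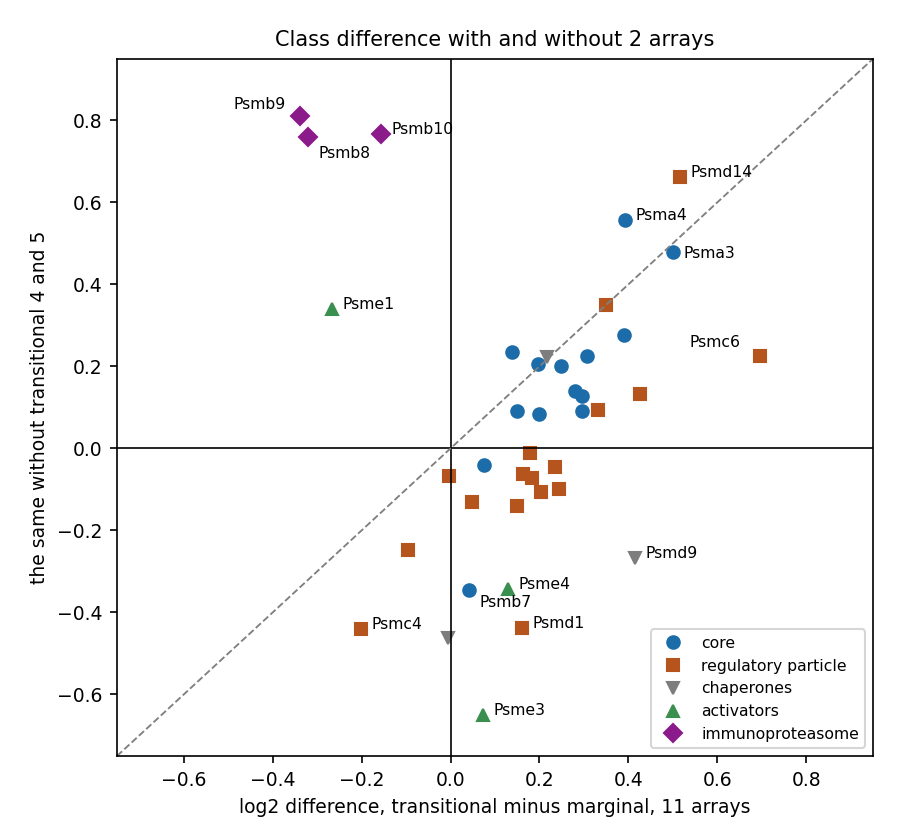
Log2 difference between classes over all 11 arrays (horizontal axis) against the same without transitional 4 and 5 (vertical axis), for the 37 tested genes and the 3 immunoproteasome genes; the dashed line marks equal values. Core genes range from above the line (Psma4, 0.39 and 0.56) through near it (Psma3, 0.50 and 0.48) to well below it (Psmb7, 0.04 and −0.35). Most regulatory particle genes fall below it, and Psme1 and the immunoproteasome genes lie above it, with a change of sign.

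Spleen grade, ranked from 1 to 5, gave no call either (0 of 13576 probe sets, background 0%; limma adjusted p = 0.9996 for each member). At an unadjusted p of 0.05 it gave 0 of 37 members, against 2.15% of all probe sets. The slope was positive for 13 of 14 core genes, 12 of 17 of the regulatory particle and 1 of 3 activators, against 45.1% of all. The smallest p were those of Psma3, at 0.15 per grade (SE 0.08), Psmc6, at 0.24 (SE 0.15), Psma5, at 0.12 (SE 0.08), and Psmb3, at 0.09 (SE 0.07). Grade and class run together in part, since the 2 highest grades were given to transitional animals alone.

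No other gene of the pathway passed the class test, and in 3 of the 4 other lists more genes were higher than lower in transitional lymphomas. The core assembly factors and the inhibitor Psmf1 were higher in 4 of 6 genes (median 0.19); Psmg1 and Pomp, both assembly chaperones, had the smallest p, at 0.20 (SE 0.18) and 0.19 (SE 0.19). Psmf1, named after its values were seen, was 2231 and 1954 on transitional 4 and 5 and from 506 to 1317 elsewhere. Proteasome-associated proteins were higher in 6 of the 8 tested genes of 10 (median 0.22), and the smallest p were those of Ubqln2, a shuttle for ubiquitinated proteins, at −0.44 (SE 0.23), and Ecpas, a scaffold that binds the proteasome, at 0.36 (SE 0.20). Of the ubiquitin list 3 of 8 genes were tested, all conjugating enzymes and all higher, with Ube2d3 at 0.35 (SE 0.16, unadjusted p = 0.0468, adjusted p = 0.999) and Ube2k at 0.22 (SE 0.18). Regulators of proteasome genes were higher in 3 of the 7 tested of 8 (median −0.0040), and the 2 with the smallest p were Nfyb, a subunit of NF-Y, at −0.11 (SE 0.22), and Nfe2l1, the factor named above, at −0.13 (SE 0.28). Nfe2l1 signal was 253 and 219 on transitional 4 and 5, within the marginal range of 209 to 508. Mouse Brd2 had a difference of −0.24 (SE 0.19).

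Several members were measured by more than 1 probe set, and 5 of the 16 genes with at least 2 tested probe sets had differences of opposite sign. Psmd7, a lid subunit, spread most, from −0.55 at a dim probe set (signal 35.8 to 245) to 0.18 at the chosen one (819 to 1807). Psmd4 ran from −0.32, also at a dim probe set (72.6 to 176), to 0.05, and Psmc4 from −0.20 at the chosen probe set to 0.11 at the other. Psmb4 ran from −0.04 at a bright probe set (3547 to 5300) to 0.20 at the chosen one. Psmb1 ran from −0.14 at a dim probe set (66.6 to 182) to 0.14. With the tested probe sets of each gene averaged, 14 of 14 core and 12 of 17 regulatory particle genes were higher. In total 30 of 37 were higher in that fit, against 42.3% of all. For 4 genes, Psma6, Psmc2, Psmd11 and Psme4, the chosen probe set carries an Affymetrix suffix for probes shared with other transcripts, so their values are less certain. The members outside the complex, Psmc3ip and Psme3ip1, differed by 0.18 (SE 0.22) and −0.13 (SE 0.18).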

How the data were processed

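The authors deposited linear array intensities, 1 per probe set and array; the submitters' processing notes name MAS5 without its version. Labelling began from a poly-dT primer, per the labels' protocols, so the signal of probe sets distant from the transcript end falls as RNA degrades. Samples were grouped by their titles (6 marginal, 5 transitional). Of 22690 probe sets, 64 controls were left out; of the other 22626, 20380 had 1 gene in GEO's platform annotation, 691 several and 1555 none, with symbols updated through Entrez identifiers to RefSeq (GRCm38.p6). The upper 60% by mean log2(signal + 16), blind to class (13576), were tested with limma 3.58.1 in R 4.3.3 (eBayes with trend, two-sided, Benjamini-Hochberg over all tested probe sets, threshold 0.05). Ratios of catalytic pairs were tested by exact permutation on the absolute difference, adjusted over 3 pairs; the smallest p it can give is 0.00216. No batch record was used. The number of arrays limits precision.

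The members and gene lists were chosen with earlier results of these data known. Genes named are those with the smallest p overall (10) and in each role (2), the catalytic subunits and activators, the widest (5) and narrowest (3) ranges, the smallest grade p (4), the 3 genes whose probe sets disagreed most, and the 2 smallest p of each other list. On data simulated with independent noise the fit recovered 32 of 100 seeded 2-fold changes and 77 of 100 seeded 4-fold changes, with 4 false calls. Every tested member differed by less than 2-fold between classes, so the absence of calls says little about changes of that size. Alternatives are listed in the closing section.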

Additional observations from a re-analysis of the deposited data

Results flagged for a closer look

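Within each class, the highest or lowest array of 28 named genes, of 3 group scores and of 3 ratios was checked for a gap to its nearest neighbour that is large against the range of the class, by Dixon's criterion. Of 68 such checks 3 passed, and chance flags about 1 in 20. Psmd14, the lid deubiquitinase, was 10272 on transitional 3. Psmb3, a beta ring subunit, was 4899 on transitional 5. Psmd2, a base scaffold, was 3102 on marginal 1.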

How the results depend on the processing

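The alternatives were offsets of 1 and 64, quantile normalization, median scaling, no filter, the upper 40% by mean, eBayes without trend, array weights, the replicate block, only animals that failed to nest, leaving out transitional 4 and 5 together or each array in turn, the erythroid score as a covariate, class in the grade model, and other choices of probe set. No member was called by class or grade in any of them, and only the erythroid covariate called any probe set (355 by class). Without transitional 4 and 5 the regulatory particle median went from 0.18 to −0.067 and the activator median from 0.07 to −0.34, and the erythroid covariate gave 0.34 for activators. The 3 ratios went to 0.80, 0.61 and 1.11 without those arrays. Among animals that failed to nest the Psmb10 to Psmb7 ratio was 0.18, the core median 0.15 and the activator median −0.12. Of the 37 members 28 were higher among these animals, against 45.3% of all probe sets. Leaving out each array in turn gave −0.71 to 0.060 for Psmb8 to Psmb5, −0.86 to −0.10 for Psmb9 to Psmb6, −0.64 to 0.31 for Psmb10 to Psmb7, 0.20 to 0.31 for the core median, 0.09 to 0.28 for the regulatory particle and −0.07 to 0.28 for activators, with the positive Psmb10 to Psmb7 values without marginal 4 (0.10), transitional 4 or transitional 5. The cause of these shifts was not tested. With array weights 26 of 37 members were higher in transitional lymphomas, against 48.8% of all probe sets. The medians with array weights were 0.04 for the regulatory particle and −0.08 for activators.

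Whether the sample numbers mark pairs is not settled. Deviations of same-numbered arrays correlated between −0.45 and −0.09, but no values for differently numbered arrays are set beside them. With the number as a replicate block 0 members were called. The medians were 0.29 for the core, 0.19 for the regulatory particle and 0.05 for activators, and the ratios were −0.40, −0.68 and −0.37. Marginal 6 has no same-numbered partner, so these medians and ratios equal those found by leaving that array out. They cannot show whether the numbers mark pairs.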
